A study of Mus musculus with 2 samples.

Results

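Ano1 to Ano6 are 6 of the anoctamin (Tmem16) genes, and their H3K9me2 peaks were read from 1 wild-type and 1 transgenic library of embryonic day 15.5 cortex from the mouse strain C57BL/6. The genes were taken by name, and a peak was assigned to a gene when it overlapped the gene body extended by 2 kb on each side. The 6 genes, of 21523 coding genes placed, held 1 of 743 wild-type peaks and 11 of 6253 transgenic peaks. Ano2 was selected on its number of transgenic peaks and its lack of wild-type peaks in these same lists, so its values are a description and carry no test.

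One library was labelled wildtype and the other TBC1D3-transgenic; TBC1D3 is a hominoid gene absent from wild-type mice. The promoter of the transgene, the number of founder lines and the number of embryos pooled are not given in the sources used here. A peak list does not measure expression, so neither the tissue label nor the transgene could be checked against marker genes. With 1 library per genotype there was no replicate check, no test between genotypes was possible, and each interval below is an exact 95% interval for counting error alone.

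Anoctamins are membrane proteins of the TMEM16 family, which holds calcium-activated chloride channels and calcium-activated phospholipid scramblases. Ano1 and Ano2 are the chloride channels. Ano1 works in secretory epithelia, smooth muscle and pacemaker cells, and Ano2 carries much of the chloride current in the cilia of olfactory neurons and is also found in photoreceptor terminals and some central neurons. Ano6 exposes phosphatidylserine on the cell surface. H3K9me2 is a histone mark of silenced chromatin, made largely by the paired methyltransferases G9a and GLP, and it usually covers broad domains rather than narrow sites.

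All 11 transgenic peaks of the 6 genes lay in Ano2, with 9, and Ano4, with 2. The single wild-type peak lay in Ano6. Ano1, Ano3 and Ano5 held 0 peaks in both libraries. All 12 peaks lay wholly inside gene bodies, and none lay in a 2 kb flank or in another annotated gene. The share of genes with a transgenic peak was thus 2 of 6, or 33.3% (4.33 to 77.7), where 5.69% of all coding genes held one. The members are long, from 88.7 kb in Ano5 to 396 kb in Ano4, and among the 2783 coding genes of 80 to 400 kb the share was 19.5%. That set has a median length of 130 kb, beside 240 kb for the members, so it is not matched to them in length. For the wild type the share was 1 of 6, or 16.7% (0.421 to 64.1), beside 0.911% of all coding genes and 2.8% of those of 80 to 400 kb. At the mean densities of their chromosomes the 6 genes would together hold 3.71 transgenic and 0.442 wild-type peaks. The median number of transgenic peaks was 0 per gene among the 6, as it was among all coding genes.

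**Figure D1:**
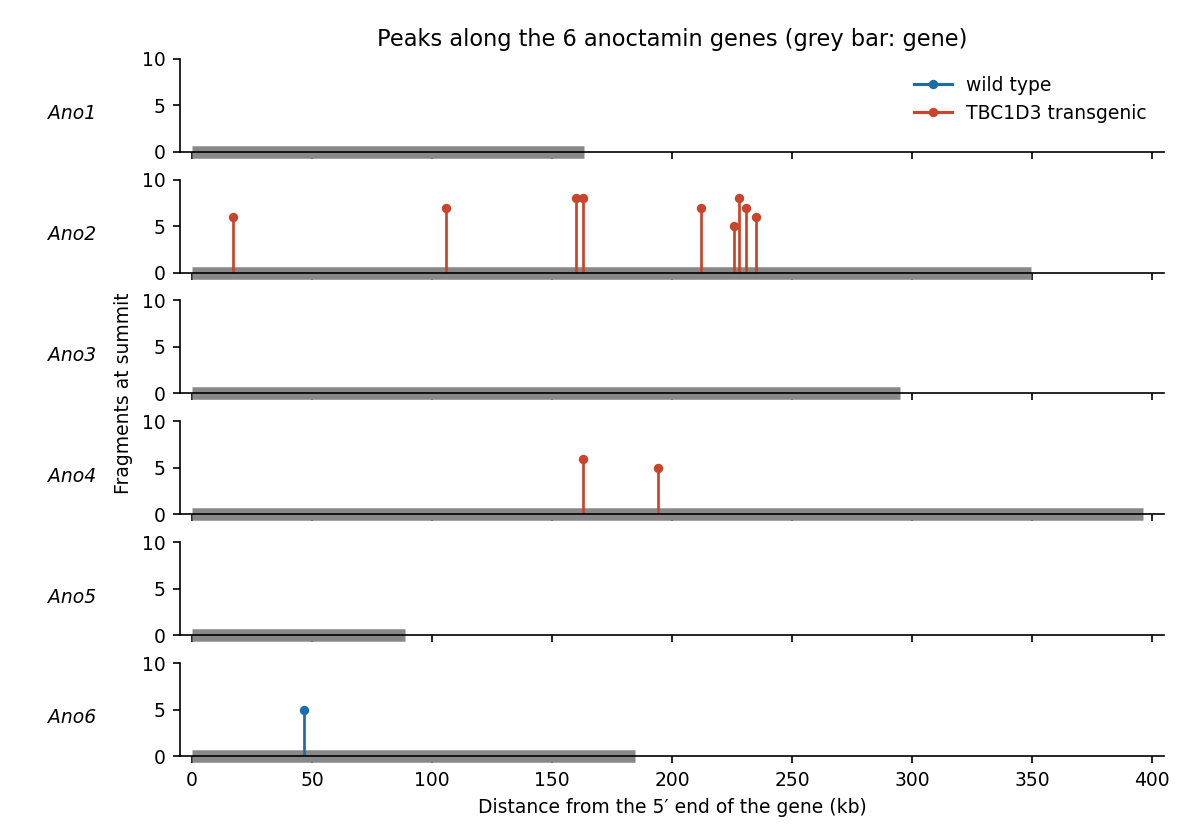
Peaks along Ano1 to Ano6, drawn to scale from the 5′ end of each gene (x axis, kb); each stick is 1 peak, its height the number of fragments at the summit, in red for the transgenic and blue for the wild-type library. The 9 sticks in Ano2 stand between 17.1 and 235 kb, Ano4 has 2, Ano6 has 1 wild-type stick, and the other 3 genes are empty.

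Ano2 lies on chromosome 6, 125690419 to 126040133 on the plus strand (mm10/GRCm38), and is 350 kb long. The promoter table of RefSeq (GRCm38.p6) lists 3 transcript starts for it, at 125690419, 125690619 and 125711188. The 250 bases before the first and before the last of these are shown because the transgenic peak closest to any listed start of the 6 genes lay between them. Capitals mark each CG.
Ano2, before the start at 125690419 (chr6:125690169-125690418, plus strand): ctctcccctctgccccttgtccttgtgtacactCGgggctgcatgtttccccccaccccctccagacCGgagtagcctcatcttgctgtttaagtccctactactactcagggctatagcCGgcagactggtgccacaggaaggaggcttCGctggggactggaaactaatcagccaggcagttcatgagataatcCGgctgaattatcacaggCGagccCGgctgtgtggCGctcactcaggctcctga
Ano2, before the start at 125711188 (chr6:125710938-125711187, plus strand): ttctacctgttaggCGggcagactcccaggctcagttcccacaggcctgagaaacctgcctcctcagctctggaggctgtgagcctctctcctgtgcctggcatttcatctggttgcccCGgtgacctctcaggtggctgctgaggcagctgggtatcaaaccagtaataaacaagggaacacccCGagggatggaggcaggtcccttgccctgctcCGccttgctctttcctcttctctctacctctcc

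The first stretch holds 8 CG and the second 4. The first transgenic peak of Ano2, at 125707490 to 125707631, ended 3.31 kb before the second stretch and lay 17.1 kb into the gene, counted at its summit. Neither library had a peak in any of the 9 promoter windows listed for the 6 genes (250 bases before to 50 after a start). Among all 32851 windows of the table, 0.0578% held a transgenic and 0.00609% a wild-type peak. The windows of the 6 genes ranged from 3 CG in Ano4 to 29 CG in Ano6, with a median over all windows of 7 (CG reads the same on both strands). Their GC content ran from 43.7% in Ano3 to 71.7% in Ano1, beside a median of 52.7%. The 3 windows of Ano2 held 10, 14 and 5 CG, and Ano2 was therefore inside the range of its relatives.

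The 9 transgenic peaks of Ano2 fell into an open part and a tight group. Peak 1 (6 fragments at the summit, fold enrichment 3.45) stood alone, and peak 2 at 125796594 to 125796725 (7 fragments, fold 3.98) followed after 89.1 kb. Peaks 3 and 4, at 125850449 to 125850559 and 125853611 to 125853740, were 3.12 kb apart and rested on 8 fragments each. Their folds of 4.89 and 4.66 were the highest of the 12 peaks. Fold enrichment is the peak caller's own value, the pileup plus 1 over the local background plus 1.

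The last 5 peaks made up the tight group, which began 48.6 kb further on. Peak 5, at 125902199 to 125902309, had 7 fragments and a fold of 3.72. Peak 6, at 125915956 to 125916066, was the weakest of Ano2, with 5 fragments, the fewest of any transgenic peak, and a fold of 2.94. The next 3 peaks came at steps of 2.53, 3.17 and 3.36 kb and were also the widest of the gene. Peak 7 spanned 125918311 to 125918592 (282 bp) with 8 fragments and a fold of 4.36. Peak 8 spanned 125921629 to 125921795 (167 bp) with 7 fragments and a fold of 3.96. Peak 9 spanned 125925035 to 125925288 (254 bp) with 6 fragments and a fold of 3.51. After peak 9 the remaining 115 kb of Ano2, 32.8% of its length, held 0 peaks.

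Each of these peaks was small. The 9 together covered 1440 bp, or 0.412% of the gene, and summed to 62 fragments at their summits. Their median pileup was 7, beside 6 over all 6253 transgenic peaks. A pileup of 8 or more was listed for 3 of the 9, beside 21.9% of all transgenic peaks. The median fold was 3.96, beside 3.62 over the whole list, which ran from 2.53 to 6.52. In height the Ano2 peaks were thus near the middle of the list.

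The authors' own p and q values varied widely among the 9 peaks. Their −log10 p ran from 3.14 in peak 6 to 6.56 in peak 3, with a median of 4.93 beside 4.33 over all transgenic peaks. A −log10 p of at least 5 was reached by peaks 3, 4 and 7, and by 32.6% of the list. Peaks 3 and 4 carried a q of 0.0673, the lowest in the list, which 502 peaks shared. The other 7 peaks carried a q from 0.0742 in peak 7 to 0.363 in peak 6. None of the 9 thus passed a q of 0.05.

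The local background that the caller used can be recovered from pileup and fold. Its median over the 9 peaks was 1.02 fragments, beside 0.997 over all transgenic peaks. In 8 of the 9 it lay above the lowest value in the list, 0.841, and peak 3 sat at that value. Over the whole list 90.4% of peaks lay above it. The background at the Ano2 peaks was thus near that of the list, and its part in the result was not tested.

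The peaks of Ano2 lay close together. The median distance between neighbouring summits in Ano2 was 8.55 kb, beside 217 kb on chromosome 6 and 219 kb over all chromosomes. Of the 8 distances 4 were under 5 kb, where 3.76% of the 372 on chromosome 6 and 3.43% of all 6233 were. The tight group of 5 peaks spanned 23.1 kb, and no other 5 transgenic peaks of the list lay within 25 kb of sequence. Within 50 kb there were 5 such runs of 5 peaks, counted without overlap, 1 of them in Ano2, and within 100 kb there were 13. All 9 peaks of Ano2 lay within 218 kb. Only 1 other run of 9 peaks was as short, on chromosome 16 from 25120880 to 25305007, over Tprg. These widths were taken from the Ano2 peaks themselves, so the counts describe the list and are no test. The same holds for the distances, since Ano2 was selected on its number of transgenic peaks, which already makes them short.

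Relative to its length, Ano2 was among the genes with most transgenic peaks. It held 2.54 per 100 kb of gene and flanks (1.16 to 4.83), which is 25.4 per Mb and 10 times the mean of chromosome 6 (4.57 to 19). This ratio was 21.3, from 2 peaks in Ano2, with the transgenic list cut to the 743 peaks of lowest q. The ratio was 0 among peaks with a fold of at least 5, none of which lay in Ano2. Only 166 of all 6253 transgenic peaks reached that fold. Among the 2425 coding genes of 100 kb or more Ano2 ranked 4th by density, after Gm765, Ppp1r1c and Vsnl1, which held 3 peaks each in bodies little over 100 kb. Counting peaks alone, 7 coding genes held 9 or more. Ano2 was the only one of these in the range of 80 to 400 kb, where the next highest gene held 5. The wild-type library gave 0 peaks in Ano2, where the mean of the chromosome gives 0.0772, so a lack of wild-type peaks was not detectable. The nearest wild-type peaks lay 13500 kb below and 1860 kb above the gene.

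**Figure D2:**
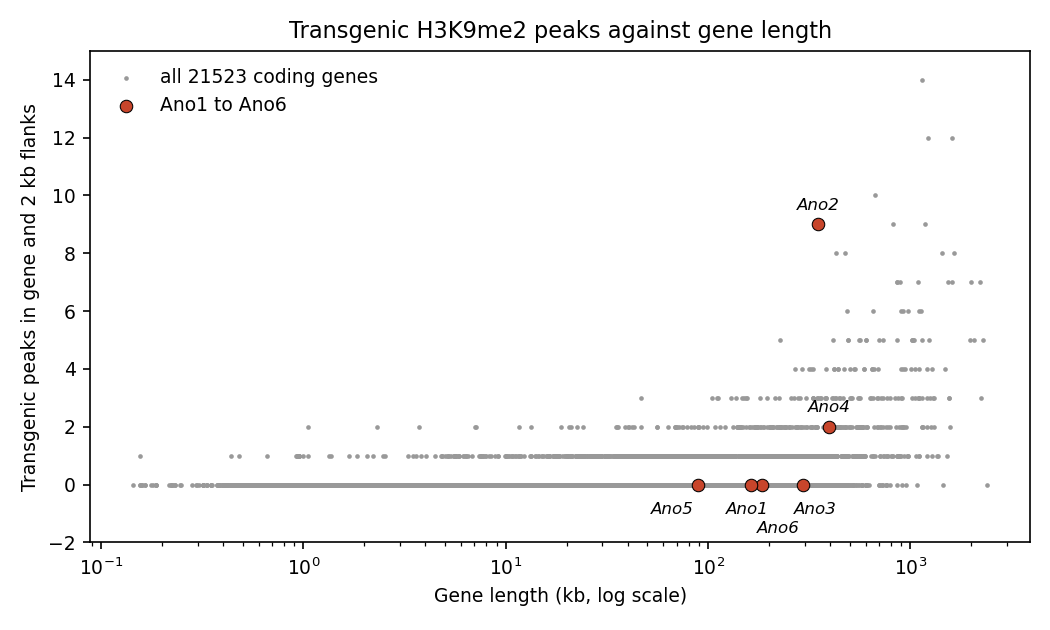
Transgenic peaks in each gene with its 2 kb flanks (y axis) against gene length (x axis, kb, log scale) for 21523 coding genes in grey, with Ano1 to Ano6 in red. Ano2 has 9 peaks at 350 kb, Ano4 has 2 at 396 kb, and the other 4 members lie on the zero line with most genes.

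The genes most like Ano2 were sought among the 21 other coding genes with at least 5 transgenic and 0 wild-type peaks, by the smallest difference in transgenic peaks per 100 kb. The closest was Pde8b, a cyclic AMP phosphodiesterase, with 5 peaks at 2.17 per 100 kb, a difference of 0.373. Next came Slc24a3, a sodium/calcium exchanger, with 8 peaks at 1.67 per 100 kb. Chrm3, a muscarinic receptor, followed with 6 at 1.23, then Zmat4 with 5 at 1.19 and Cacna1e, a voltage-gated calcium channel subunit, with 5 at 1.0. This likeness rests on 1 library and says only that their densities were close.

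Ano2 lay at an edge between an empty and a dense stretch of the transgenic list. The 1 Mb below it holds or touches 41 coding genes and had 0 transgenic peaks (0 to 3.69), and the last peak before Ano2 lay in C1rb, a complement protease gene, 1110 kb away. Vwf, the gene of von Willebrand factor, ends 3.74 kb before Ano2 and held 0 peaks. Of the 372 distances between neighbouring peaks on chromosome 6, 26 were at least as long as the 1130 kb that end at the first Ano2 peak. Such an empty stretch was therefore not rare on the chromosome. The 1 Mb above Ano2 touches 10 coding genes and had 8 transgenic peaks (3.45 to 15.8), beside a chromosome mean of 2.54 per Mb.

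The 8 peaks above Ano2 lay between genes or in noncoding ones. Of them, 2 lay 16.5 and 11.1 kb below Ntf3 in coordinate, which encodes neurotrophin-3, a growth factor for neurons, with 7 fragments and a fold of 3.96 each. Ntf3 itself, 61.3 kb from Ano2, held 0 peaks. Another 5 lay between Ntf3 and the potassium channel gene Kcna5, the last of them 9.69 kb from Kcna5 with 8 fragments. One of these 5, at 126466398 to 126466585, had the highest pileup of the neighbourhood, 9. Its fold of 3.36 was the lowest of the 8, beside a transgenic list median of 3.62. The eighth lay 22.1 kb from Ndufa9. Of the 8, 3 overlapped noncoding genes or pseudogenes (Gm10415, Gm33276 and Gm29788).

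Together, Ano2 and the stretch above it formed the densest megabase of the transgenic list. When a window of 1 Mb was opened at every transgenic peak, the one opened at the first peak of Ano2 held 16 summits, which spanned 815 kb. The next highest, over Satb1 on chromosome 17, held 15, and those over Tprg and Trp63 on chromosome 16 and over Shoc2 and Adra2a on chromosome 19 held 14 each. The first places differ by 1 peak, which is within counting error. Among peaks with a −log10 p of 5 or more, the Ano2 window held 5 peaks and the highest other window 7, so its first place was not kept. No wild-type peak fell in the window, where the wild-type mean of chromosome 6 is 0.218 per Mb, so a lack was not detectable. The wider flanks had 5 transgenic peaks in the 5 Mb below (1.0 per Mb, 0.325 to 2.33) and 20 in the 5 Mb above (4.0 per Mb, 2.44 to 6.18). The single wild-type peak within 2 Mb of Ano2 lay in Tspan11. Of 73 coding genes within 2 Mb, Ano2 included, those with a transgenic peak were Ano2, C1rb, Cracr2a and Prmt8, with 1 peak in each of the last 3.

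**Figure D3:**
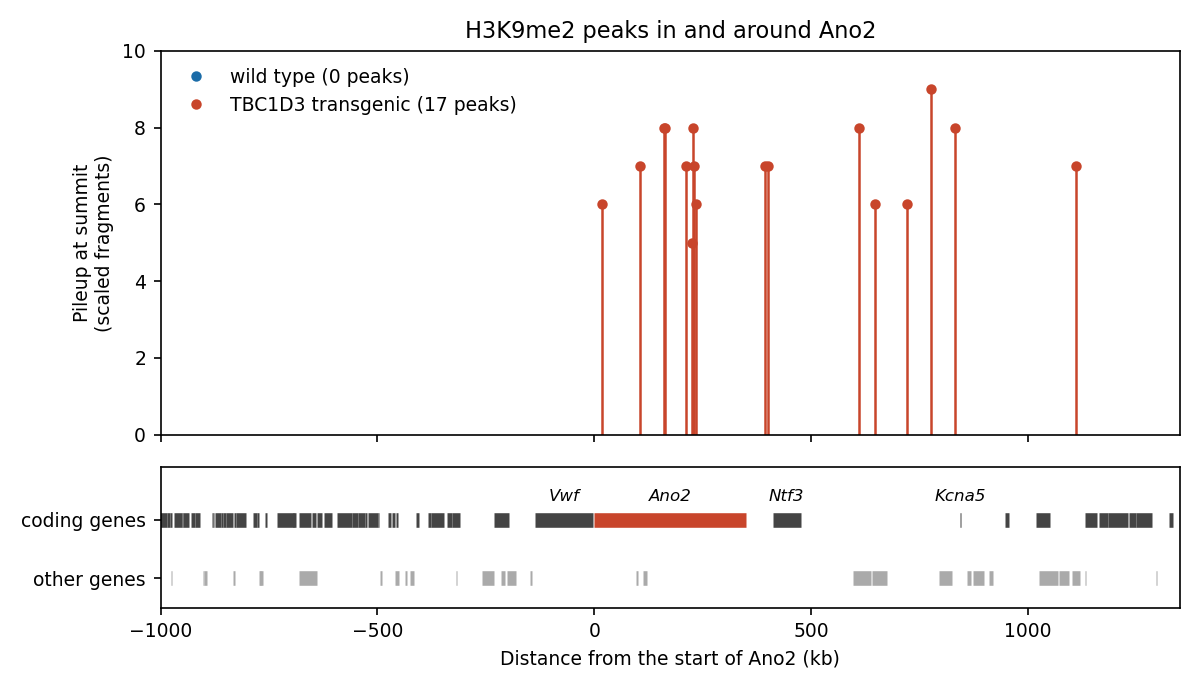
Peaks in Ano2 and about 1 Mb on each side, by distance from the start of Ano2 (x axis, kb); the upper panel gives the pileup at each summit in scaled fragments (y axis) and the lower panel the positions of coding and other genes. All 17 transgenic peaks in view lie at or above the start of Ano2, between pileups of 5 and 9, and 0 wild-type peaks are in view.

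**Figure D4:**
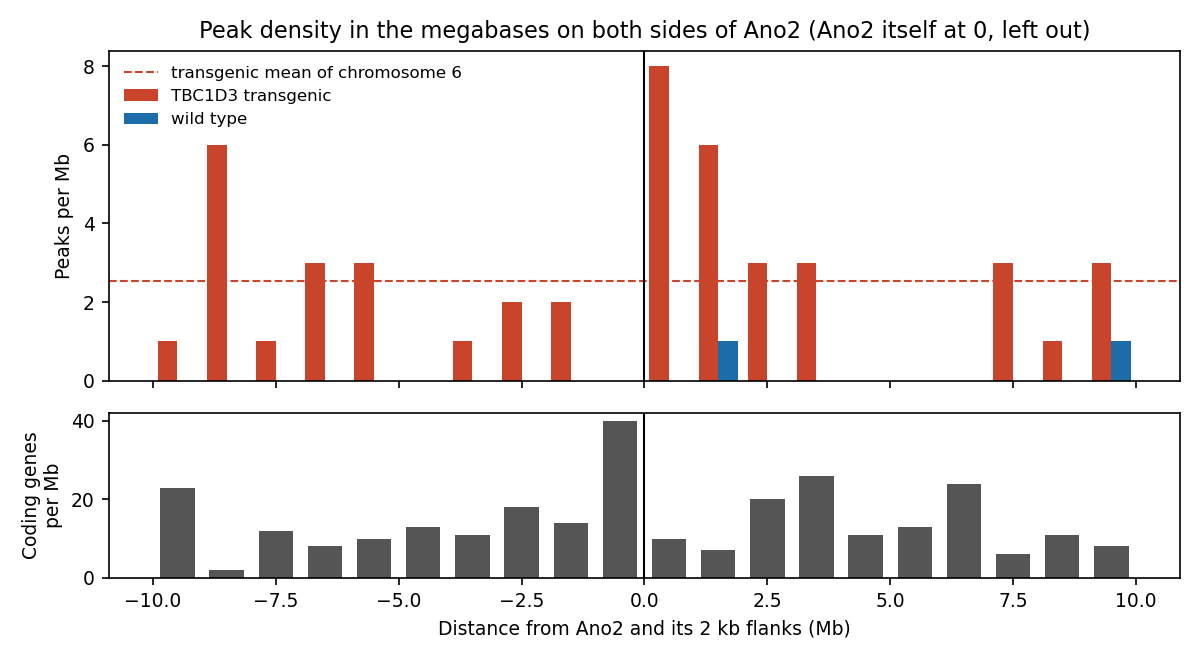
Peaks per Mb (upper panel) and coding genes per Mb (lower panel) in 10 windows of 1 Mb on each side of Ano2, which is left out; red bars are transgenic, blue bars wild type, and the dashed line is the transgenic mean of chromosome 6. The first 2 windows above Ano2 hold 8 and 6 transgenic peaks, the first below holds 0 together with 40 coding genes (by gene midpoint), and the windows range from 0 to 8.

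Ano1, the closest relative of Ano2 in function, lies on chromosome 7, 144588549 to 144752026. It held 0 peaks in both libraries, where the chromosome mean gives 0.375 transgenic and 0.06 wild-type peaks. Its surroundings were not empty, with 4 transgenic peaks within 1 Mb below and 3 within 1 Mb above. Whether the chromosome reaches a full 1 Mb beyond Ano1 was not checked. The nearest transgenic peak was 133 kb from the gene.

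Ano6, the scramblase, lies on chromosome 15, 95790843 to 95975472, and held the wild-type peak of the family. That peak, at 95837282 to 95837338, was 57 bp wide, which equals the fragment extension of the wild-type call and the median width of the wild-type list. It rested on 5 fragments, the fewest of any wild-type peak, with a fold of 3.49 beside a list median of 3.90 and a q of 1. It lay 46.5 kb into the gene. The nearest transgenic peak was 221 kb away, and Ano6 held 0 transgenic peaks where the chromosome mean gives 0.494. The single wild-type peak therefore did not set the libraries apart at this gene.

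Ano4, a brain-expressed anoctamin on chromosome 10 at 88948932 to 89345205, was the other gene with transgenic peaks. They lay at 89151625 to 89151735 with 5 fragments and a fold of 3.0, and at 89181970 to 89182091 with 6 fragments and a fold of 3.52. Both stood near the middle of the gene, at 48.8% and 41.2% of its length from the 5′ end. Their q values were 0.363 and 0.216. The density was 0.50 per 100 kb (0.0605 to 1.80), and the 2 peaks compare with 1.02 at the mean of the chromosome. At least 2 transgenic peaks were held by 4.46% of coding genes of 80 to 400 kb. That set has a median length of 130 kb, so most of its genes are much shorter than Ano4, at 396 kb. Ano4 held 0 wild-type peaks, and the nearest one lay 27.3 kb beyond the gene.

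Ano3, which is expressed in brain and linked to dystonia in people, spans 295 kb of chromosome 2 (110655201 to 110950391) and held 0 peaks in both libraries. The chromosome mean gives 0.717 transgenic peaks, and the nearest transgenic peak lay 69.2 kb from the gene. Ano5, linked to muscular dystrophy in people, is the shortest member at chromosome 7, 51510007 to 51598707, and also held 0 peaks. Its neighbourhood had 6 transgenic peaks in the 1 Mb below and 4 in the 1 Mb above, the closest 123 kb away. The long Ano3 and the short Ano5 were thus alike in having none, at counts too low to tell either from its chromosome's mean.

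In order of transgenic peaks per 100 kb, Ano2 stood first with 2.54, Ano4 second with 0.50, and Ano1, Ano3, Ano5 and Ano6 had 0. The intervals of Ano2 (1.16 to 4.83) and Ano4 (0.0605 to 1.80) overlapped, as did those of Ano4 and each of the 4 genes at 0, whose upper ends ran from 1.23 in Ano3 to 3.98 in Ano5. These intervals cover counting error alone, and no difference between members was tested. The remaining anoctamins, Ano7, Ano8, Ano9 and Ano10, held 0 peaks in both libraries. Ano7, Ano8 and Ano9 are shorter than every member, but Ano10, at 119 kb, is longer than Ano5, at 88.7 kb. The chromosome means give 0.497 transgenic peaks over all 4.

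Genes related to the anoctamins in function were read from 5 further lists, whose shares with a transgenic peak ran from 2.94% to 28.6%, beside 5.69% of all coding genes. Of 34 other chloride channel genes, which include the bestrophins, the Clcn family, Cftr and the Lrrc8 subunits, Clic5 held 2 transgenic peaks, the other 33 held 0, and 0 held a wild-type peak. That is a share of 2.94% (0.0744 to 15.3) in a list with a median gene length of 28.6 kb. Among 11 relatives in the Tmc and Tmem63 families, Tmc2, a part of the hair-cell transduction channel, held 1 transgenic peak, a share of 9.09% (0.23 to 41.3). Of 16 genes of olfactory transduction, where Ano2 acts, 2 held a transgenic peak, or 12.5% (1.55 to 38.3), and their 3 peaks compare with 3.61 for the whole list at the chromosome means. Pde1c, a calmodulin-dependent phosphodiesterase, held 2 transgenic peaks where its chromosome mean gives 1.49, and Rtp2 held 1. In the same list Slc24a4, the exchanger that clears calcium from olfactory cilia, held the only wild-type peak of the 5 lists, so 6.25% of this list (0.158 to 30.2) had one, beside 0.911% of all coding genes.

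Of 17 scramblase and flippase genes outside the family, 3 held transgenic peaks, a share of 17.6% (3.8 to 43.4). Their 7 peaks compare with 5.05 for the whole list at the chromosome means. The 3 genes were Atp8a2, a phospholipid flippase, with 4 peaks where the chromosome mean gives 1.18, Xkr6 with 2 beside 0.65 and Xkr4 with 1 beside 1.28. Of 14 genes that supply or sense calcium, 4 held transgenic peaks, a share of 28.6% (8.39 to 58.1) in a list with a median length of 93.5 kb, beside 19.5% of coding genes of 80 to 400 kb. Their 10 peaks compare with 6.4 for the whole list. The 4 genes included the ryanodine receptors Ryr3, with 4 peaks beside 1.41 at the chromosome mean, and Ryr2, with 3 beside 1.74. The others were the inositol trisphosphate receptors Itpr1, with 2 beside 0.87, and Itpr2, with 1 beside 1.01. These 4 genes range from 338 to 586 kb in length, with Ryr2 and Ryr3 above the range of 80 to 400 kb. Neither list held a wild-type peak. The median was 0 transgenic peaks per gene in each of these lists.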

How the data were processed

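H3K9me2 chromatin immunoprecipitation was sequenced in 1 wild-type and 1 TBC1D3-transgenic cortex library. The authors used MACS version 2.1.0.20150420 with each library's own input as control, a p cutoff of 0.001, no shift model and an extension of 57 bp (wild type) and 111 bp (transgenic), per the file headers. BWA, without a version, and mm10 are named in the submitters' processing notes. The headers give 26735120 and 20697113 ChIP tags after filtering. The deposited pileup signal carries a scale factor of 0.951 for the wild type and 1 for the transgenic, and dividing by this gave whole fragments within 0.02 for 100% of peaks. The deposited fold, −log10 p and −log10 q are the authors' values per peak. A header line says that q would be reported as not computed, but the column holds values, which were taken as they stand.

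Peaks were counted per gene (overlap of at least 1 bp) with Python 3.11.15 on a RefSeq gene table of GRCm38.p6, which has no exons, so exonic and intronic peaks were not told apart. Genes starting below 3 Mb were left out. All 6 members and every gene of the further lists matched by symbol, and all 6 had promoter windows. Chromosome means were taken from 3 Mb to the last gene or peak. The counting was tested on simulated data with planted peaks. Intervals are exact Poisson, or Clopper-Pearson for shares. Genes were named by rule: all members, up to 6 genes with peaks in each further list, coding genes with a peak within 2 Mb of Ano2 and the nearest on each side, and the 5 most like Ano2. Genes at the densest windows and runs, those ahead of Ano2 by density, and Kcna5 and Ndufa9 were named after their values were seen. The members and lists were chosen with earlier results of these data known. Peak sequences were not analysed here.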

Additional observations from a re-analysis of the deposited data

How the results depend on the processing

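With 1 library per genotype no library could be left out, and peaks of 5 to 8 fragments limit what the counts can show. No paired analysis was possible because each genotype has 1 library and no test was made. Counting was repeated with the gene body alone, a peak's midpoint, a 10 kb extension, and peaks merged within 1 kb. Each left 9 peaks in Ano2, 11 in the 6 genes and 1 wild-type peak. The gene-body, midpoint and merging settings could not change these counts, because every peak lies wholly inside its gene and none within 1 kb of another. The 10 kb extension gave 2 other chloride channel genes with a transgenic peak, where the reported number is 1. Most counts changed more under the stricter lists, which are also shorter, and the reason was not tested. A fold of at least 5 left 0 transgenic peaks in Ano2 and in the 6 genes, 0 wild-type peaks, 0 member genes with a peak in either library, 0 other chloride channel genes and a density ratio of 0 for Ano2 (166 transgenic and 62 wild-type peaks remained in all). A −log10 p of at least 5 left 3 transgenic peaks in the 6 genes, 3 of them in Ano2, so 1 gene with a transgenic peak, and 0 wild-type peaks in 0 genes. The density ratio of Ano2 was 9.56 there. With the transgenic list cut to the 743 peaks of lowest q, 2 peaks remained in the 6 genes, 2 of them in Ano2, so 1 gene, and the density ratio was 21.3. The megabase that opens at Ano2, an alternative added after seeing the data, held 0, 5 and 2 peaks under these 3 lists, and the highest other megabase 2, 7 and 6. After merging within 1 kb they held 16 and 14.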
